A study of Caenorhabditis elegans with 16 samples.

Results

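The aspartyl and cathepsin B proteases described here are 10 genes of Caenorhabditis elegans: asp-1, asp-3, asp-4, asp-5 and asp-6, which encode aspartyl proteases, and cpr-1, cpr-3, cpr-4, cpr-5 and cpr-6, which encode cathepsin B-like cysteine proteases. They were taken by gene symbol and not by their values, and all their transcripts were kept. This gave 12 of 26080 transcript features (10 of 21544 genes), because cpr-6 is listed as 3 transcripts (C25B8.3a, C25B8.3b and C25B8.3c). All 12 passed the filter on low values. RNA of whole worms at the L4 larval stage was sequenced from the wild-type strain Bristol N2 and from strains mutated in both ADAR genes, which encode the enzymes of A-to-I RNA editing. These were BB4, with adr-1(gv6) I together with adr-2(gv42) III, and BB21, with adr-1(tm668) I together with adr-2(ok735) III, so that each pair of alleles is represented by 1 strain. For the heat shock, plates were held at 34 °C for 75 min, left at room temperature for 20 min and returned to 20 °C for 3 h, while the plates for standard conditions stayed at 20 °C. There were 3 libraries of N2, 3 of BB4 and 2 of BB21 under each condition, and BB4 and BB21 were analysed as 1 group, the ADAR mutant, which is how the labels name both (5 libraries under each condition).

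Proteins that a worm eats or recycles are cut into peptides by proteases in the gut lumen and in acidic lysosomes. Aspartyl proteases of the cathepsin D and pepsin type use a pair of aspartates and work at low pH, and cathepsin B-like proteases use a catalytic cysteine. In C. elegans several of these enzymes are known as products of the intestine, where many lysosome-related granules lie, and others also act in other tissues. Whole worms cannot show in which tissue a transcript was made. The 12 listed intestine marker genes found in the table (16 features, among them elt-2, the main GATA factor of the intestine, and ges-1, a gut esterase) were above 0 in every library, from 1.57 normalized counts for 1 transcript of ifc-2 to 8382 for act-5. A normalized count is a read count divided by the size factor of its library.

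The libraries fell into sets that the titles also mark. There were 6 libraries with between 30011732 and 35693369 reads, which are called deep, and the other 10, whose titles end in 12_7 or 28_6, had between 4699505 and 9624995 and are called shallow. Each strain and condition holds a library of each kind. The 4 libraries with titles ending in 28_6 (N2 replicate 2 and BB4 replicate 1, standard and heat shock) stood apart in the response to heat. There the ratio of heat shock to standard was 0.410 to 0.541 for hsp-70, 0.966 to 1.27 for hsp-16.11 and 1.09 to 1.54 for hsp-16.2. In the other 6 pairs these chaperone genes had ratios of 1.77 to 8.28, 2.73 to 9.85 and 2.64 to 16.25, respectively. The labels of these 4 libraries were kept, and the calls of members after heat shock are therefore given with and without them. The lists of related genes and of markers are given only with them. The counts of adr-2 were 732 to 1442 in N2 and 139.56 to 593 in the mutants.

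On chromosome V lie 7 of the genes, and asp-3, asp-4 and cpr-6 lie on chromosome X. The genes asp-5 and asp-6 are near neighbours, with 1 protein-coding gene between them. No other feature of the table had the reads of a member within 10% in every library, apart from the transcripts of cpr-6, whose reads cannot be divided between them and which are in effect 1 measurement. The members other than cpr-3 had 303 to 33226 reads in a library. The reads of cpr-3 were 34 to 443.

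Between genes, levels were compared only per kb of exonic length. In N2 under standard conditions asp-1, an aspartyl protease known from the intestine of larvae, had the highest level, with 14834 ± 3274 normalized counts per kb (SD, n = 3). It was followed by asp-6, with 4214 ± 205 per kb (SD, n = 3), and asp-5, with 3442 ± 789 per kb (SD, n = 3), both encoding predicted aspartyl proteases. The lowest was cpr-3, a cathepsin B homologue, with 101 ± 18.4 per kb (SD, n = 3). Most of the members thus lay within a narrow band below asp-1. The other members were ordered as cpr-6 (2692 to 2773 per kb over its transcripts), asp-3 (2731), cpr-1 (2343), cpr-5 (2224), cpr-4 (1864) and asp-4 (1341). Of the neighbours in this order, asp-1 and asp-6 did not overlap over the 3 libraries, and neither did asp-4 and cpr-3. The ranges of all the other neighbours overlapped. Within each of the 3 libraries, asp-6 was above asp-5, asp-5 above C25B8.3c of cpr-6, cpr-5 above cpr-4, and cpr-4 above asp-4. In contrast, cpr-1 was above cpr-5 in 2 of the 3, and asp-3 was not ordered in the same way against the transcripts of cpr-6.

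**Figure D1:**
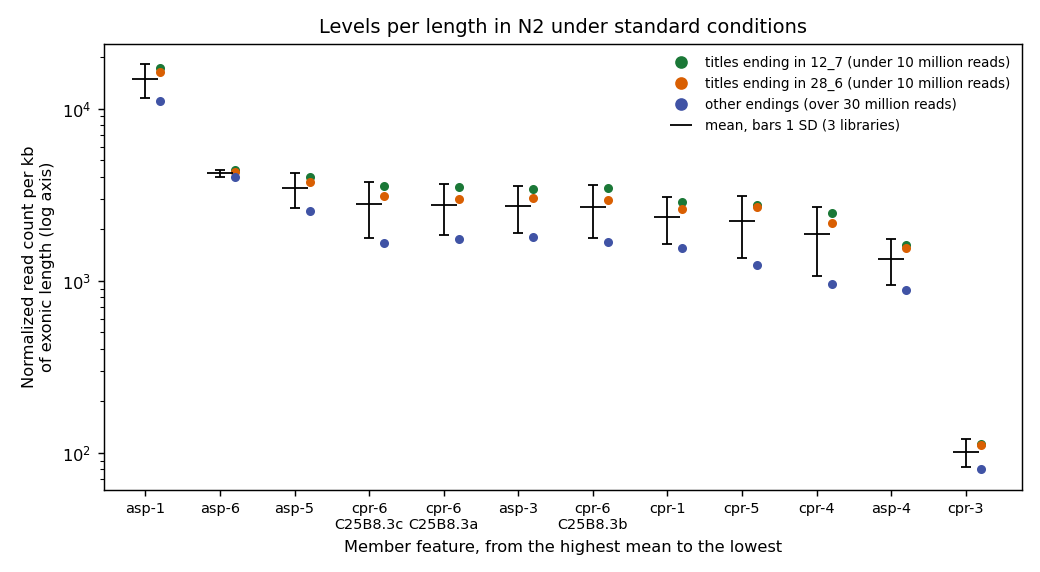
Normalized read count per kb of exonic length (log axis) of the 12 member features in the 3 N2 libraries under standard conditions, with the mean and 1 SD. The level of asp-1 lay above and that of cpr-3 below all the others, and the deep library was the lowest of the 3 for each feature.

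The spread within groups followed the sets of libraries. Under standard conditions 10 of the 12 features were lower in every one of the 3 deep libraries than in any of the 5 shallow ones, against 24.6% of all features tested. After heat shock this held for 7 of the 12, against 24.4% of all features. The count of asp-1 under standard conditions was 11414 to 13212 in the deep libraries and 19207 to 21643 in the shallow ones, a ratio of means of 1.68. For cpr-5, a cathepsin B homologue, it was 1169 to 1486 and 2901 to 3720.15, a ratio of 2.43. These ranges did not overlap. The exceptions under standard conditions were asp-6 and cpr-1, whose deep and shallow libraries overlapped. After heat shock the exceptions were asp-6, cpr-1 and the 3 transcripts of cpr-6.

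Markers of several other cell types, and some lists of related genes described below, differed between the same sets, in both directions. Under standard conditions the summed counts of the body wall muscle markers were 79036 to 124601 in the deep libraries and 17575 to 33719 in the shallow ones. For the sperm markers they were 30081 to 36551 and 90914 to 107919.85, respectively. Epidermis sums were also lower in the deep libraries, and those of neurons and of oocyte and embryo higher, without overlap. The other papain-family cathepsins had 5107 to 7756 in the deep libraries and 10840 to 14957 in the shallow ones, and the cystatins 1135 to 1500 and 3319 to 4208. The list of the lysosome membrane and its regulation went the other way (16395 to 19167 and 9567 to 11749). The sums of the intestine markers overlapped (16081 to 19605 and 17233 to 21745), but single markers among them did not. Counts of act-5 were 3974 to 5668 in the deep libraries and 7346 to 8382 in the shallow ones, and those of mtl-2 were 160 to 191 and 734 to 1258. In the opposite direction, elt-2 had 183 to 231 and 83.2 to 148. In whole worms, fewer cells of a type and less RNA per cell cannot be told apart, and the part of these differences in the levels of the proteases was not tested. Since the depth goes with the titles, depth and other differences between the sets cannot be told apart either.

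**Figure D2:**
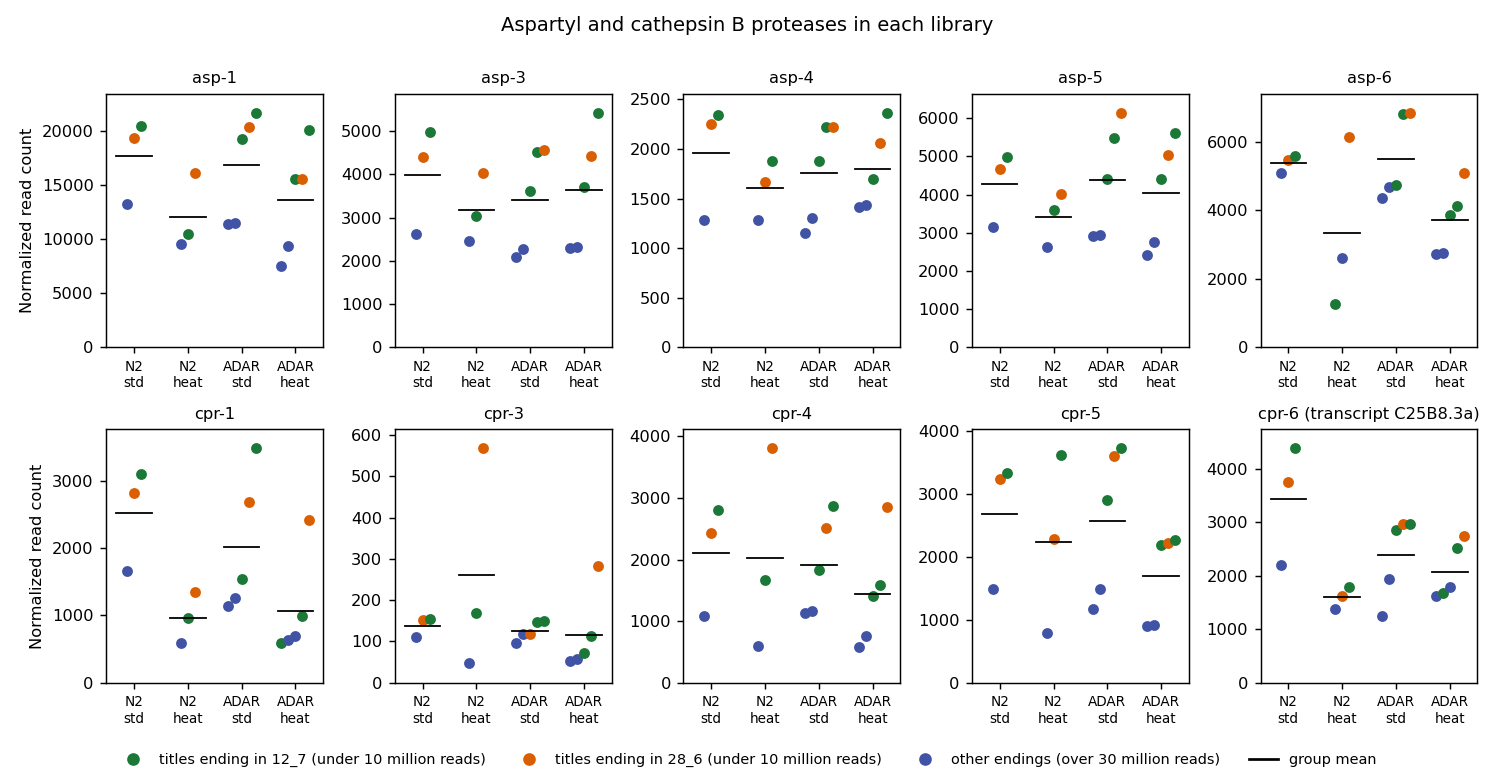
Normalized read count of each gene in each library (1 panel per gene, with transcript C25B8.3a for cpr-6), by strain and condition. Std is standard, heat is heat shock, ADAR is BB4 and BB21, and the bars are group means. The deep libraries lie at the bottom of most groups, and cpr-1 and cpr-6 are the genes whose N2 groups do not overlap.

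The comparison of heat shock with standard conditions asks how each strain responded. In N2 the values of 11 of the 12 features were lower after heat shock, with a median log2 fold change over the features of -0.50, while that of all features tested was 0.04. In the ADAR mutants 10 of 12 were lower, with a median of -0.25 against 0.07. Both medians hold cpr-6 3 times, with log2 fold changes of -1.01 to -1.06 in N2 and -0.16 to -0.17 in the mutants. The gap between the medians of the strains comes from this weight. With cpr-6 counted once, the 2 middle values were -0.43 and -0.32 in N2 (cpr-5 and cpr-4). In the mutants they were -0.41 and -0.34 (cpr-3 and asp-1). In the fit of the 4 groups, no member passed an adjusted p of 0.05 in either strain (limma, Benjamini-Hochberg adjustment over 24401 features, smallest adjusted p 0.114 in N2 and 0.178 in the mutants). At an unadjusted p under 0.05 there were 5 of the 12 features in N2 and 1 in the mutants, against 19.8% and 20.5% of all features. The features that passed as lower in this fit were 0.537% of all features in N2 and 2.39% in the mutants. On the recovered reads, DESeq2 called 1 member as lower in N2 (transcript C25B8.3a of cpr-6), against 2.57% of all features, and none in the mutants, against 4.28%. No member was called by edgeR, which called 0.156% of all features as lower in N2 and 1.95% in the mutants.

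The heat-shocked and standard libraries of the same strain and replicate number deviated together, and the numbers were therefore also entered as a block. With this replicate block, 5 of the 12 features were lower in N2 at an adjusted p under 0.05 from limma (asp-1, cpr-1 and the 3 transcripts of cpr-6), against 9.91% of all features. In the mutants 2 of the 12 were lower (cpr-1 and cpr-5), against 9.75% of all features. No member was higher in either strain. With the set of libraries as a term in place of the block, 6 features were lower in N2 (the same 5 and asp-6), against 11.2% of all, and 2 in the mutants (cpr-1 and cpr-5), against 10.3%.

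Without the 4 libraries with titles ending in 28_6, an alternative chosen after the data were seen, no member passed the fit without the block, in which 0.0853% of all features were lower in N2 and 1.29% in the mutants. With the block, 6 features were lower in N2 (asp-1, asp-6, cpr-1, cpr-4 and transcripts C25B8.3a and C25B8.3b of cpr-6), against 7.77% of all features. In the mutants 2 were lower (cpr-1 and cpr-4), against 7.52%. Thus cpr-4 passed and cpr-5 did not pass once these libraries were left out.

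**Figure D3:**
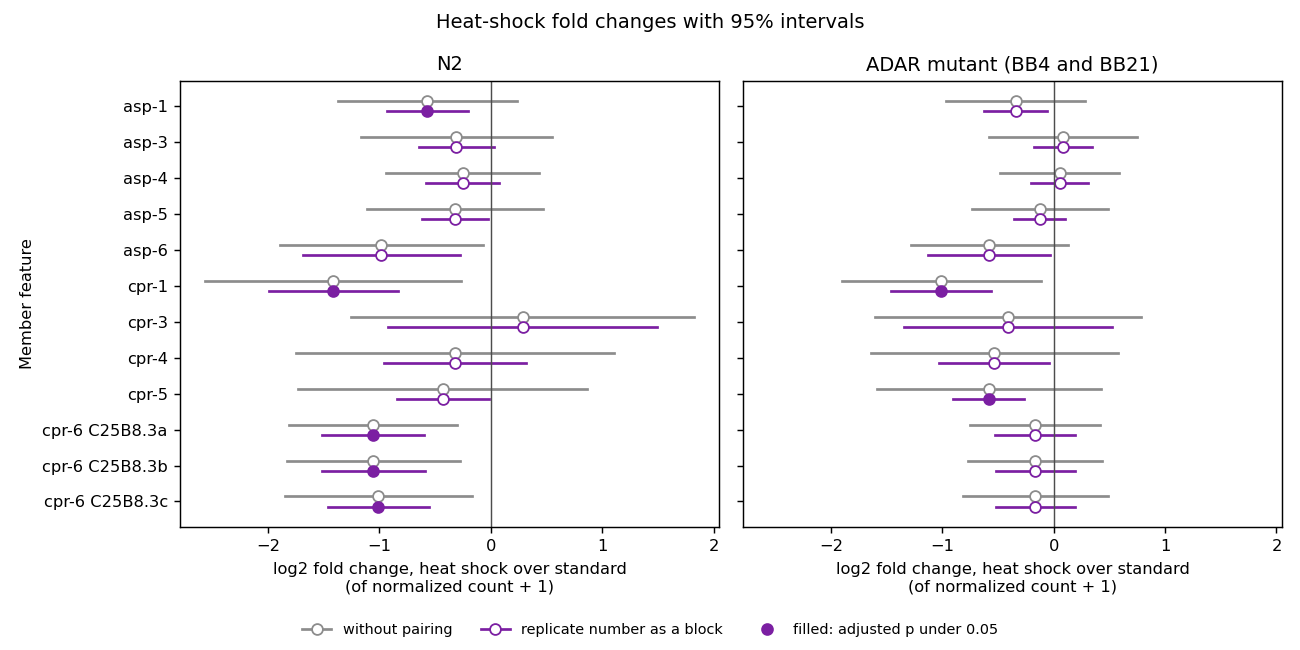
Log2 fold change of heat shock over standard for the 12 member features in N2 (left) and in the ADAR mutants (right), from limma on the log2 of the normalized count plus 1, with 95% intervals. Grey is the fit of the 4 groups and purple the fit with the replicate number as a block. Filled points passed an adjusted p of 0.05, which 5 features did in N2 and 2 in the mutants, all with the block.

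The gene with the lowest log2 fold change was cpr-1, which encodes a cathepsin B-like protease known from the gut. In N2 its counts were 3102, 2816 and 1659.89 under standard conditions and 961, 1345 and 592 after heat shock (replicates 1 to 3). The groups did not overlap. In the mutants the standard counts were 2679, 3481 and 1143 in BB4 and 1542 and 1257 in BB21, and those after heat shock were 2422, 995 and 634 in BB4 and 585 and 698 in BB21. Here the groups overlapped because BB4 replicate 1, a library with a title ending in 28_6, stayed high after heat shock. The log2 fold change of cpr-1 came to -1.41 for N2 (standard error 0.54, adjusted p = 0.162 from limma) and -1.01 in the mutants (standard error 0.42, adjusted p = 0.178). With the block the adjusted p from limma was 0.0101 in N2 and 0.00644 in the mutants.

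Within pairs, cpr-1 was lower after heat shock in 8 of 8, with ratios from 0.286 to 0.904. Without the libraries with titles ending in 28_6 its log2 fold change was -1.59 in N2 and -1.22 in the mutants, and the adjusted p from limma with the block was 0.0109 and 0.00274. Leaving out each pair in turn, cpr-1 passed with the block in the mutants in all 8 fits. In N2 it passed in 7 of 8, and the adjusted p from limma was 0.0546 without N2 replicate 1. No overlap between heat shock and standard was found for 4 of the 12 features in N2 (cpr-1 and the 3 transcripts of cpr-6), against 7.62% of all features, and for none in the mutants, against 4.2%. Without the libraries with titles ending in 28_6 there were 6 such features in N2 (also asp-1 and asp-6), against 13.4% of all, and 2 in the mutants (asp-6 and cpr-1), against 6.43%.

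The cathepsin B homologue cpr-6 was the other gene without overlap in N2. Transcript C25B8.3a had counts of 4391, 3758 and 2195.5 under standard conditions and of 1788, 1622 and 1379.9 after heat shock. All 3 heat-shocked libraries of N2 lay below the lowest standard one. The counts of the other transcripts in N2 were 4342, 3717 and 2117 against 1785, 1604 and 1336 for C25B8.3b, and 4492, 3906 and 2085 against 1985, 1713 and 1318 for C25B8.3c. In the mutants its standard counts were 2965, 2850.4 and 1943 in BB4 and 2967 and 1249.75 in BB21, and those after heat shock were 2754, 2526 and 1796 in BB4 and 1677 and 1627 in BB21. The groups of the mutants overlapped, and 1 of the 5 pairs was higher (a ratio of 1.30 in BB21 replicate 2). The log2 fold changes of the 3 transcripts were -1.01 to -1.06 in N2 (standard errors 0.35 to 0.39, adjusted p = 0.114 to 0.170 from limma) and -0.16 to -0.17 in the mutants. With the block the adjusted p from limma in N2 was 0.0119 to 0.0133. This call in N2 was lost without N2 replicate 1, where it was 0.0613 to 0.0639, and C25B8.3c no longer passed without the libraries with titles ending in 28_6 (adjusted p = 0.0501 from limma with the block).

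Among the aspartyl proteases, asp-1 was lower after heat shock in 8 of 8 pairs, with ratios from 0.510 to 0.928. This was shared only with cpr-1 among the members, and 12.4% of all features were lower in all 8 pairs. In the 6 pairs without titles ending in 28_6 it held for asp-1, asp-6, cpr-1 and cpr-4, against 15% of all features. In N2 asp-1 counts were 20457, 19335 and 13212 under standard conditions and 10435, 16106 and 9553 after heat shock. In the mutants they were 20345, 21643 and 11458 in BB4 and 19207 and 11414 in BB21 under standard conditions, and 15539.8, 20076 and 9336 in BB4 and 15511 and 7498 in BB21 after heat shock. The groups overlapped in both strains, because deep standard libraries lay below some shallow heat-shocked ones. For asp-1 the log2 fold change came to -0.57 in wild-type worms (standard error 0.38, adjusted p = 0.461 from limma, and 0.0373 with the block) and -0.34 in the mutants (standard error 0.29, adjusted p = 0.618, and 0.0761 with the block). The call in N2 with the block was kept in 2 of 8 fits that left out a pair, and the adjusted p from limma was 0.205 without N2 replicate 1.

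The predicted aspartyl protease asp-6 was spread widely in N2 after heat shock. Its standard counts were close together, at 5579.7, 5460.5 and 5078, while those after heat shock were 1262, 6129 and 2593. The 6129 belongs to the library with a title ending in 28_6, the only one of the 3 above its standard partner. In the mutants asp-6 was lower in 5 of 5 pairs, with ratios from 0.567 to 0.871. Its standard counts were 6846.5, 6797 and 4688 in BB4 and 4744 and 4371 in BB21, and 5096, 3856 and 2762 in BB4 and 4134 and 2722.5 in BB21 after heat shock. The log2 fold change of asp-6 came to -0.98 in wild-type worms (standard error 0.43, adjusted p = 0.216 from limma, and 0.0527 with the block). In the mutants it was -0.58 (standard error 0.33, adjusted p = 0.37 from limma, and 0.117 with the block). Without the libraries with titles ending in 28_6 the value in N2 was -1.56, with an adjusted p of 0.0837 from limma and of 0.0138 with the block. Without N2 heat shock replicate 2 alone, asp-6 passed the fit without the block (-1.57, adjusted p = 0.0238 from limma). Without N2 heat shock replicate 1 alone it was -0.43 (adjusted p = 0.634 from limma), and with the block and without this pair it was -0.40 (adjusted p = 0.324 from limma), so that the value in N2 rests on which of these libraries is kept.

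The lysosomal aspartyl proteases asp-3 and asp-4, which are known to take part in necrotic death of neurons, had small differences between conditions in the mutants. In N2 the counts of asp-3 were 4968, 4394 and 2616 under standard conditions and 3034, 4029.7 and 2457 after heat shock. In the mutants they were 4569, 4519 and 2082 in BB4 and 3609.8 and 2266 in BB21 under standard conditions, and 4426, 5423 and 2321 in BB4 and 3719 and 2295 in BB21 after heat shock. All 3 pairs of N2 were lower and 1 of the 5 of the mutants. The counts of asp-4 in N2 were 2344, 2247.8 and 1283 against 1877, 1665 and 1284. In the mutants they were 2219.98, 2217 and 1304 in BB4 and 1883 and 1151 in BB21 under standard conditions, and 2057, 2364 and 1417 in BB4 and 1702 and 1435 in BB21 after heat shock. All of these groups overlapped. The log2 fold changes were -0.31 for asp-3 and -0.25 for asp-4 in N2, and 0.09 and 0.05 in the mutants, where the intervals (95%, -0.58 to 0.75 for asp-3 and -0.48 to 0.59 for asp-4) allow changes in either direction.

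The predicted aspartyl protease asp-5 was lower after heat shock in 6 of 8 pairs. In N2 its counts were 4989.98, 4659 and 3154 under standard conditions and 3592, 4010.46 and 2617 after heat shock. In the mutants they were 6139, 5491 and 2913 in BB4 and 4406 and 2953 in BB21 against 5023, 5604 and 2749 in BB4 and 4412 and 2429 in BB21. The groups overlapped in both strains, and the log2 fold change was -0.32 in N2 and -0.12 in the mutants. Each of asp-3, asp-4 and asp-5 had an adjusted p above 0.05 from limma in both strains, also with the block (0.106 to 0.765).

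The cathepsin B homologue cpr-5 was lower after heat shock in 7 of 8 pairs. In N2 its counts were 3319, 3239 and 1479.7 under standard conditions and 3618, 2280.3 and 790.36 after heat shock, so that replicate 1 did not share the direction of the other 2. In the mutants they were 3590.2, 3720.15 and 1169 in BB4 and 2901 and 1486 in BB21 under standard conditions. After heat shock they were 2215, 2257 and 913 in BB4 and 2185 and 894 in BB21. All 5 pairs of the mutants were lower, with ratios from 0.602 to 0.781, although the groups overlapped. The log2 fold change was -0.58 in the mutants (standard error 0.47, adjusted p = 0.588 from limma, and 0.0157 with the block) and -0.43 in N2 (standard error 0.61, adjusted p = 0.806, and 0.117 with the block). The call in the mutants with the block held in 6 of 8 fits that left out a pair, with a highest adjusted p of 0.0673 from limma (without BB4 replicate 2), and it was 0.0551 without the libraries with titles ending in 28_6.

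The direction of cpr-3 and cpr-4 went with the set of libraries. The product of cpr-4 is a secreted cathepsin B, known as a signal between irradiated and other cells of the worm. In N2 the counts of cpr-3 were 153, 153 and 109.58 under standard conditions and 168, 568 and 48.4 after heat shock. The 568 belongs to the heat-shocked library with a title ending in 28_6 and was the highest of all 16. In BB4 they were 119.15, 149 and 97.0 under standard conditions and 282, 72.5 and 56.8 after heat shock, and in BB21 148 and 118 against 114 and 53.7. The ratio of cpr-3 was thus 3.72 and 2.37 in the 2 pairs with titles ending in 28_6, 0.442 to 0.586 in the 3 deep pairs and 0.485 to 1.10 in the 3 pairs with titles ending in 12_7. The pairs with titles ending in 28_6 were also those with the lowest ratios of hsp-70, hsp-16.11 and hsp-16.2.

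The counts of cpr-4 in N2 were 2803, 2434 and 1077 under standard conditions and 1665, 3807 and 592 after heat shock. In BB4 they were 2510.02, 2875 and 1137 against 2845, 1588 and 758, and in BB21 1832 and 1171 against 1404 and 579.98. Its ratio was 1.56 and 1.13 in the pairs with titles ending in 28_6 and 0.495 to 0.766 in the other 6. Over the 8 pairs, the log2 ratios of cpr-3 and cpr-4 had a Pearson's r of 0.94, a description over pairs that share their sets. It was the highest r between any of the member genes, and the lowest was -0.79 (asp-4 and cpr-3). The log2 fold change of cpr-3 was 0.29 in N2 (standard error 0.72) and -0.41 in the mutants (standard error 0.56), and that of cpr-4 was -0.32 (standard error 0.67) and -0.53 (standard error 0.52), with adjusted p from 0.686 to 0.914 from limma. Without the libraries with titles ending in 28_6, cpr-4 had log2 fold changes of -0.81 in N2 and -0.71 in the mutants, with adjusted p of 0.0343 and 0.00966 from limma with the block. That of cpr-3 was then -0.52 in N2 and -0.82 in the mutants, with adjusted p of 0.381 and 0.0739.

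**Figure D4:**
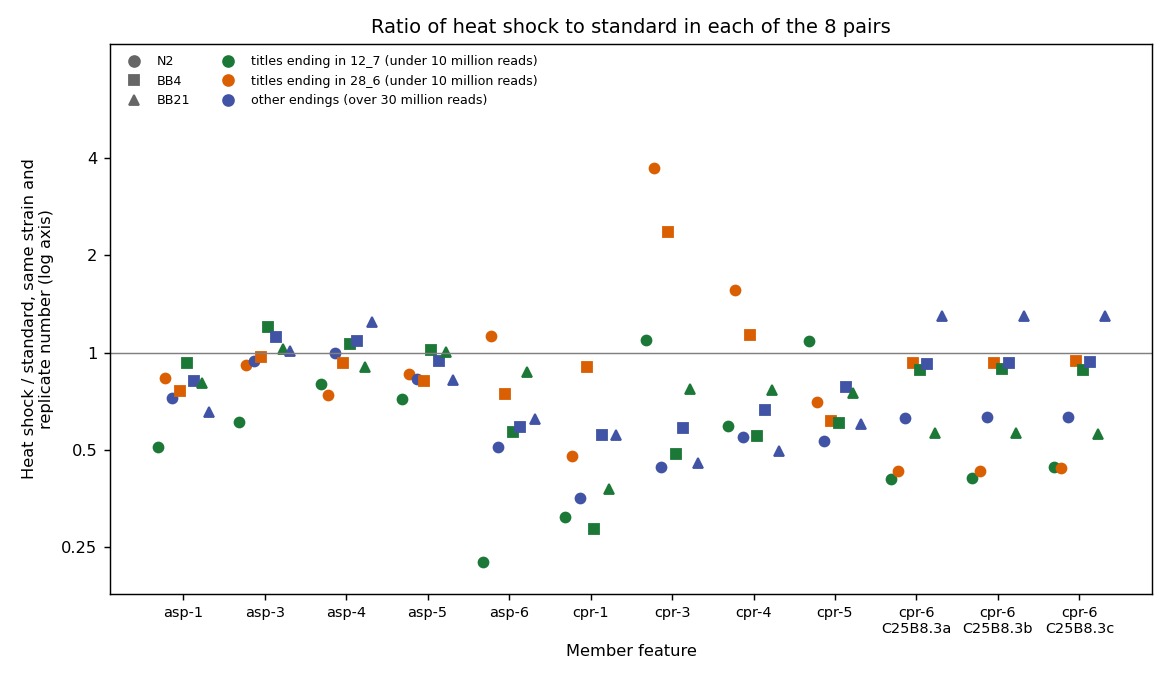
Ratio of heat shock to standard (log axis) of each member feature in each of the 8 pairs of the same strain and replicate number. The shape gives the strain and the colour the set of libraries. All 8 points of asp-1 and cpr-1 lie below 1, and the points of cpr-3 and cpr-4 with titles ending in 28_6 lie above 1.

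No difference between the strains passed for any member. Under standard conditions the log2 fold changes of the mutants over N2 were -0.55 to 0.00, with a median of -0.15 against -0.01 over all features, and none passed (adjusted p = 1 for each feature from limma). Over all features, 0.0041% passed in this comparison, and no member had an unadjusted p under 0.05. After heat shock they were -0.83 to 0.41, with adjusted p of at least 0.906 from limma, and 0% of all features passed. The lowest value under standard conditions was that of cpr-6 (-0.54 to -0.55 over its transcripts). The 95% interval of C25B8.3a was -1.22 to 0.14, so that neither a lower level of this size nor no difference is left out. With the set of libraries as a term, the 3 transcripts had an unadjusted p under 0.05 and an adjusted p of 0.392 to 0.394 from limma. DESeq2 and edgeR called no member in any comparison of the strains.

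The difference of the heat-shock responses, mutant minus N2, was tested by itself. It was -0.70 to 0.89 over the 12 features, with a median of 0.35 (cpr-6 counted 3 times) against 0.05. None passed (adjusted p = 1.00 from limma), as for 0% of all features. With all 16 libraries the highest values were those of cpr-6, at 0.85 to 0.89. With the block these 3 transcripts had an unadjusted p under 0.05 and an adjusted p of 0.714 from limma. Without the libraries with titles ending in 28_6 the highest value was that of asp-6, at 0.94, and cpr-6 had 0.74 to 0.80. There too none passed with the block (smallest adjusted p 0.477 from limma). The call of cpr-6 in N2 and not in the mutants, and that of cpr-5 in the mutants and not in N2, are therefore not shown to be differences between the strains.

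Related genes of the same pathway were counted from lists of symbols, and any gene named that is neither among the most abundant of its list nor among those with its lowest adjusted p in the mutants was picked with its values in view. The only other aspartyl protease listed, asp-2, had log2 fold changes of -0.95 and -1.03 for its transcripts T18H9.2a and T18H9.2b in N2. They did not pass without the block (adjusted p = 0.152 and 0.135 from limma) and passed with it (adjusted p = 0.0372 and 0.0367). In the mutants they were -0.30 and -0.33 and did not pass with the block (adjusted p = 0.337 and 0.334 from limma). Of 4 other papain-family cathepsins, none passed without the block. With it, cpl-1, a cathepsin L, was lower in N2 (-0.88, adjusted p = 0.0118 from limma) and in the mutants (-0.41, adjusted p = 0.04795 from limma), in 8 of 8 pairs. The other abundant gene of this list, cpz-1, a cathepsin Z, had log2 fold changes of -0.54 in N2 and 0.08 in the mutants (adjusted p = 0.177 and 0.810 from limma with the block). In contrast, cpr-2, at a mean of 17.1 counts, was higher in N2 (3.03, adjusted p = 0.0337 from limma with the block). Its value in the mutants was 1.62 and did not pass (adjusted p = 0.0988 from limma with the block). The cystatin cpi-1, an inhibitor of papain-family proteases, was higher with the block in N2 (0.73, adjusted p = 0.0451 from limma) and in the mutants (0.78, adjusted p = 0.00999), and it was higher in 7 of 8 pairs. The other cystatin gene, cpi-2, had log2 fold changes of 0.06 and 0.07 for transcript R01B10.1a.

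The vacuolar ATPase, the proton pump that acidifies lysosomes, had 27 features from 20 genes. All 27 were below 0 in N2, with a median of -0.68. None passed without the block in N2 and 16 were lower with it. In the mutants 20 of 27 were below 0, with a median of -0.14, and the 2 transcripts of vha-7 passed as lower without the block (-0.73 and -0.69, adjusted p = 0.0463 and 0.0495 from limma). With the block 3 features were lower in the mutants (vha-18 and the transcripts of vha-7). These 3 were also among the 16 that were lower in N2 with it. Its most abundant features were vha-13, with log2 fold changes of -0.86 in N2 and -0.24 in the mutants, and vha-16, with -0.69 and -0.14. Of these only vha-13 passed, in N2 with the block (adjusted p = 0.0112 from limma). The other lysosomal hydrolases (27 features from 23 genes) had medians of -0.51 in N2 and -0.40 in the mutants. Without the block, nuc-1, a DNase II, was lower in N2 (-1.61, adjusted p = 0.0310 from limma). In the mutants asm-2, an acid sphingomyelinase, was lower (-0.73, adjusted p = 0.0451 from limma), and lipl-6, a lipase (1.80, adjusted p = 0.0339), and aagr-4, an acid glucosidase homologue (1.63, adjusted p = 0.0394), were higher. With the block, asm-2 (-0.81, adjusted p = 0.0286 from limma) and aagr-4 (0.97, adjusted p = 0.0369) passed in N2 in the same directions. The value of lipl-6 in N2 was 1.15 (adjusted p = 0.0983 from limma with the block). The most abundant of this list, aagr-1 and pcp-5, had log2 fold changes of -0.23 and 0.03 in N2 and of 0.03 and 0.22 in the mutants. With the block 10 features were lower and 1 higher in N2, and 5 were lower and 3 higher in the mutants. Of 23 features of the lysosome membrane and its regulation, none passed without the block. With it, 6 were lower and 1 higher in N2, and 1 was lower and 3 higher in the mutants. Of all 24401 features, the block called 2417 as lower and 2335 as higher in N2, and 2379 and 3237 in the mutants. The 3 higher features in the mutants, here and among the other lysosomal hydrolases, are not above that share. In this list ncr-2, a homologue of the cholesterol transporter NPC1, was higher in both strains (1.52 and 1.37). The gene mxl-3, a transcription factor that represses lysosomal lipases, was lower in the mutants (-0.39, adjusted p = 0.0344 from limma with the block). In N2 its log2 fold change was -0.46 and did not pass (adjusted p = 0.0538 from limma with the block). It was lower in 8 of 8 pairs. The abundant features of this list, scav-3 and transcript C41C4.7b of ctns-1, had log2 fold changes of -0.17 and -0.79 in N2, where ctns-1, a lysosomal cystine transporter, passed with the block. In the mutants they were -0.12 and -0.34, and neither passed with the block. Under standard conditions no feature of these 6 lists passed between the strains.

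Markers of cell types moved with heat shock as well. The 12 oocyte and embryo features, which include vitellogenins made in the intestine, were all below 0 in both strains. Of these 2 passed as lower in N2 (oma-2 and cbd-1) and 8 in the mutants without the block, and 11 and 12 with it. Their summed counts were 73001 to 170048 under standard conditions and 38555 to 60011 after heat shock in N2, and 64399.78 to 113436 and 32265 to 50635 in the mutants, so that the groups did not overlap. No listed gene of this group is a member. The summed counts of the intestine markers in N2 were 19155, 17233 and 18720.32 under standard conditions and 10847, 16955 and 17333 after heat shock. N2 heat shock replicate 1 thus had the lowest sum, with 19.02 counts of elt-2 against 148 in its standard partner. It had 165 against 1234 of pho-1, an intestinal acid phosphatase, and 615 against 2253 of pept-1, a gut peptide transporter. Not all markers were lower in this pair. Those of pgp-1 (314 against 45.65) and of the ifc-2 transcripts M6.1a (1430 against 858) and M6.1b (929 against 555) were higher. In N2 replicate 2 pho-1 was also lower (605 against 1223). N2 heat shock replicate 1 is also the library with the lowest count of asp-6 in N2. It held the highest count of cpr-5 in N2 (3618), and cpr-3 was above its standard partner (168 against 153). The counts of asp-1, cpr-1 and cpr-4 were lower in N2 heat shock replicate 3. Without the pair of replicate 1 the calls of cpr-1 and cpr-6 in N2 with the block were lost. Their log2 fold changes were then still -1.28 for cpr-1 and -0.94 for C25B8.3a of cpr-6. The call of asp-1 was lost too, but it was kept in only 2 of the 8 fits that left out a pair. In the mutants the sums overlapped (16081 to 21745 and 17578 to 22000.36). None of the 16 features passed without the block. With it, act-5, pho-1 and pept-1 were lower and pgp-1 was higher in N2. In the mutants pgp-1 and ifc-2 were higher with it. Over all 24401 features, 2335 were higher and 2417 lower with the block in N2, and 3237 and 2379 in the mutants. No feature of the lists for pharynx, body wall muscle, epidermis, neurons, germ line and sperm passed without the block. With it, 3 of 9 pharynx features (the transcripts of pha-4), 1 of 9 epidermis features (rol-6) and 1 of 42 sperm features (msp-42) were higher in N2, and 3 of 10 germ line features (him-3, gld-1 and pgl-3) were lower. In the mutants 1 pharynx feature (pha-4), 3 of 17 muscle features (myo-3, unc-54 and unc-89) and 5 epidermis features (rol-6, dpy-3, dpy-7, sqt-3 and bli-1, all cuticle collagens) were higher. There, 2 germ line features (gld-1 and glh-2) and 8 sperm features were lower, where the msp genes are near-identical copies that may share reads. No neuron feature passed with the block in either strain. The part of these differences in the values of the proteases was not tested.

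The features most like the proteases over the libraries were sought among 14236 features with a mean of at least 100. Their Pearson's r with the mean standardized log2 level of the 10 genes over the 16 libraries was 0.981 for ZK1320.3, 0.977 for F46F2.3 and 0.977 for transcript R09H10.3a. These libraries share the deep and shallow sets, so that r is a description of the sets as well as of the conditions. All 3 were below 0 after heat shock in both strains, with log2 fold changes of -0.60 to -1.08 in N2 and -0.23 to -0.74 in the mutants. They were chosen over the same heat-shocked and standard libraries, so that sharing this direction is no separate evidence.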

How the data were processed

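RNA of 16 libraries of whole L4 worms was sequenced from poly(A) RNA. The authors trimmed and collapsed the single reads and aligned them with Bowtie to the transcripts of WS220, where a read could match several transcripts. They deposited the reads per transcript divided by 1 size factor per library from DESeq2, a signal that is never negative. Because a read may count for several transcripts, those of 1 gene are not independent. How far collapsing reads lowered high counts is not known, and asp-1, with 1191 exonic bases, had up to 33226 reads. The version of the aligner and that of DESeq2 used by the authors are not given in the sources used here. The values were whole multiples of 1 read in 100% of cases (tolerance 0.001), which gave back whole reads and the depth (4699505 to 35693369 reads). A table of the authors' own comparisons (log2 fold changes and p-values) was not used.

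The log2 of the normalized count plus 1 was fitted in limma 3.58.1 (R 4.3.3) with 4 groups (N2 and ADAR mutant, standard and heat shock) and a trend, on features with a mean of at least 1 (24401 features), with Benjamini-Hochberg adjustment over all of them and a threshold of 0.05. Where the text says that a feature passed, rose or fell, it refers to this adjusted p, in the fit named there. Intervals are 95%. Since fold changes are of the count plus 1, those of low features are understated. Heat-shocked and standard libraries of the same strain and replicate number in the labels deviated together (r of 0.385 to 0.822 for the 8 pairs, and the own partner was the best in 4 of 8), and the replicate number was therefore used as a block. In 1 pair, BB4 replicate 3, the endings of the titles differ. The labels number biological replicates but do not say whether they came from separate cultures, so that p-values measure the spread between these libraries. DESeq2 1.42.0 and edgeR 4.0.16 were run on the recovered reads, and 35 alternatives were run in all (pseudocount, filter, scaling, tool, block, set of libraries, single strains and libraries left out). The fit was also run on simulated counts with known fold changes. These had 1 dispersion and no effects of sets or pairs, so that they do not test the fit under the spread seen here. Exonic lengths and chromosomes are from WBcel235, and no coordinates are given.

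All features of the 10 genes are named. Of each list of related genes, the most abundant features and those with the lowest adjusted p in the mutants are named. The genes and the lists, of pathways and of markers of cell types, were chosen with earlier results of these data known.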

Additional observations from a re-analysis of the deposited data

Results flagged for a closer look

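Over the 24 groups of 5 libraries tested, 2 held a library far from the others, while chance flags about 1 in 20 groups. In the ADAR mutant after heat shock, the cpr-1 count of BB4 replicate 1 was 2422 and that of the next library 995, a gap of 0.776 of the range (critical value 0.71). In the same library the cpr-3 count was 282 and the next 114, a gap of 0.737 of the range. Its title ends in 28_6.

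In 4 cases every pair of one set of libraries moved one way and every pair of the other set the opposite way, and these differences were not tested. Such splits were sought for all 12 features in 4 comparisons (N2 against the mutants, and each of the 3 sets against each other). With only 2 or 3 pairs in a set they also arise by chance, and their share over all features was not counted. The mean log2 ratio of heat shock to standard of asp-4 was -0.271 in the pairs with titles ending in 28_6 and 0.146 in the deep pairs. That of cpr-3 was 1.561 and -1.014, respectively. For cpr-4 it was 0.413 in the pairs with titles ending in 28_6, -0.820 in the deep pairs and -0.664 in those with titles ending in 12_7.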

How the results depend on the processing

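Without the block, no member passed in N2 in the fit of the 4 groups. For N2, 1 passed with DESeq2 (transcript C25B8.3a of cpr-6), 5 with the replicate block, 6 with the set of libraries as a term, 3 in the libraries with titles ending in 12_7 or 28_6 only (cpr-6, against 1.64% of all features lower) and 2 in the deep libraries only (asp-6 and cpr-1, against 2.29%). The last compares 1 library of N2 with 1 and assumes that they vary like those of the mutants. With the replicate block, 4 passed in N2 after quantile normalization (2.69% of all), 5 with TMM factors (9.7%) and 6 without the 4 libraries with titles ending in 28_6. For the mutants, 2 passed with the replicate block, with the set as a term, with the block and TMM factors (9.81% of all) and with the block without titles ending in 28_6. There, 4 passed in the deep libraries only (asp-6, cpr-1, cpr-3 and cpr-4, against 7.12% of all) and 3 with the block after quantile normalization (asp-1, cpr-1 and cpr-5, against 10.1%). Leaving out single libraries gave 0 to 1 members in each strain, asp-6 without N2 heat shock replicate 2 and cpr-1 without BB4 heat shock replicate 1 (adjusted p = 0.0326 from limma). With all 16 libraries, the replicate block changed the calls of asp-1, cpr-1 and cpr-6 in N2 and of cpr-1 and cpr-5 in the mutants, and no other call of a member. The alternatives without titles ending in 28_6, with the deep libraries only and with the block and another scaling were chosen after seeing the data. The medians over the members kept their direction in every alternative for heat shock in N2 (-0.88 to -0.28) and in the mutants (-0.41 to -0.12), but not between the strains after heat shock (-0.06 to 0.35). No member passed in any alternative of the comparisons of the strains.

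Of the 24 fold changes after heat shock (12 features in 2 strains), 14 kept their direction in all alternatives. In the deep libraries only, N2 gave 0.0015 for asp-4 and -1.16 for cpr-3, and the mutants gave 0.13, 0.13 and 0.14 for cpr-6 (C25B8.3a, C25B8.3b and C25B8.3c). Without titles ending in 28_6, cpr-3 was -0.52 in N2, with and without the block. In titles ending in 12_7 or 28_6 only, asp-4 was -0.0544 in the mutants. Without single libraries, N2 values ranged from -0.59 to 1.17 for cpr-3, from -0.97 to 0.37 for cpr-4 and from -0.91 to 0.19 for cpr-5. Those of the mutants ranged from -0.078 to 0.23 for asp-3, from -0.084 to 0.15 for asp-4 and from -0.26 to 0.040 for asp-5. The causes were not tested. Depth limits mainly cpr-3, with 34 to 443 reads.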
